A study of Mus musculus with 6 samples.

Results

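The caveolar coat genes described here are 9 genes: the caveolins *Cav1*, *Cav2* and *Cav3*, the cavins *Cavin1*, *Cavin2* and *Cavin3*, and the accessory genes *Ehd2*, *Pacsin2* and *Pacsin3*. They were found through the RefSeq accessions of their probes, and they are 9 of the 22911 genes that could be named on the array and 9 of the 14898 that passed the filter for brightness. The family was chosen because *Cavin3* had the largest rise in IG27 cells of all genes tested, so its values in this comparison are given as a description and carry no test. The fourth cavin, *Cavin4*, was not among the 9 and is given with the partner genes.

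Caveolae are small flask-shaped pits of the plasma membrane. Caveolins are inserted in the membrane and assemble into oligomers with cholesterol, and the cytosolic cavins coat the resulting bulb, with cavin-1 required for a caveola to form and cavin-2, cavin-3 and the muscle cavin-4 joining it in a tissue-dependent way. EHD2 is an ATPase that holds the neck of the pit and restrains its movement, and the pacsins are F-BAR proteins that bend the membrane there. Caveolae are most abundant in endothelial cells, adipocytes and muscle, where caveolin-3 is the muscle form, and in the brain they are known mainly from vessels, with caveolins also described in astrocytes.

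The cells were OS3, a line of glial cells from the brain of newborn C3H/HeN mice (C3H and male in the labels) that was immortalized with SV40. IG27 cells are OS3 cells transfected with a plasmid for histone H3.3 with the K27M change (OS3-H3F3A_K27M) and grown out under drug selection, and WT cells are OS3 cells with the empty vector (OS3-vector). The comparison asks how RNA expression differs between cells with and without the mutant histone. Each group had 3 samples after 2 days of culture in the same medium with serum, insulin and glucose, and the labels do not say whether these came from separate cultures, so the errors measure the spread between samples of 1 selected line per group and not between independently made lines. The vector's promoter and the number of founding clones of each line are not given in the labels.

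A single slide carried all 6 single-color Agilent arrays, 1 for each sample. Values are log2 of the processed signal minus the 75th percentile of the array, here called the normalized log2 intensity, so a value of 0 is that percentile and a difference of 1 is a doubling. A probe was called well above background by the flag of the scanner software. The scanner output of IG27 replicate 2 is incomplete, so its values came from the deposited value table and it has no such flag. On the 5 complete arrays, 58.8% to 61.2% of probes were well above background and no spot was saturated. Arrays of the same group correlated at 0.9943 or more over the brightest probes of the genes tested, and arrays of different groups between 0.9017 and 0.9053. WT replicates 1 and 3 lay in one row of the slide, and WT replicate 2 and all IG27 arrays in the other. Of the 11 glial markers checked, 9 were well above background on all WT arrays and 10 on both complete IG27 arrays, with *Gfap*, *Sox10*, *Nes* and *Vim* among them, while *Slc1a3* was not above background in WT cells. The 3 probes of *H3f3a*, the gene whose mutant was introduced, differed by -0.26, 0.17 and -0.20 (log2, IG27 minus WT), and since it is not known whether they read the plasmid's transcript, they do not check the labels. Probes differ in brightness for the same amount of RNA, so a gene's level is compared between groups on the same probe and not with the level of another gene.

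The start sites of the family differ in base composition, and 4 windows are shown because they belong to 2 genes with large differences between the groups (*Cav3* and *Cavin2*) and 2 with small ones (*Cav2* and *Cavin1*). Each window is taken from RefSeq on GRCm38.p6 and runs from 250 bases before the start to 50 after it, 5′ to 3′ on the gene's strand, with CpG dinucleotides in capitals. The *Cav3* window is chr6:112459255-112459554 on the plus strand, that of *Cavin2* is chr1:51288876-51289175 on the plus strand, that of *Cav2* is chr6:17280935-17281234 on the plus strand and the first of *Cavin1* is chr11:100970568-100970867 on the minus strand.
Cav3: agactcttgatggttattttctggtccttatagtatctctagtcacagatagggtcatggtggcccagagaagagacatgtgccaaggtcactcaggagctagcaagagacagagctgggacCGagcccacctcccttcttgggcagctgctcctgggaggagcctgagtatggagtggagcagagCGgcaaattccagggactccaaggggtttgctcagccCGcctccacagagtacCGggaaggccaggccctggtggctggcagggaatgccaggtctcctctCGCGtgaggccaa
Cavin2: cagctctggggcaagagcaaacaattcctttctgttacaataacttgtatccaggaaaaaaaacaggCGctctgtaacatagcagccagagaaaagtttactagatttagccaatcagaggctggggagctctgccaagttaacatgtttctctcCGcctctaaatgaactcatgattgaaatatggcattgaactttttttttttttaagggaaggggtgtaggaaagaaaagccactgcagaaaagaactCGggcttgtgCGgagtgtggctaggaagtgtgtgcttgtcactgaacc
Cav2: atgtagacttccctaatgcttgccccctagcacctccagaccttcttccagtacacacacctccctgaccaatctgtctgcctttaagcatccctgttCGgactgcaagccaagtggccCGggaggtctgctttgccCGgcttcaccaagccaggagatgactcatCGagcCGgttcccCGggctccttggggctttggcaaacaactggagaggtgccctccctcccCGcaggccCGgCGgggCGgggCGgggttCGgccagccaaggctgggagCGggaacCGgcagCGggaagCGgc
Cavin1: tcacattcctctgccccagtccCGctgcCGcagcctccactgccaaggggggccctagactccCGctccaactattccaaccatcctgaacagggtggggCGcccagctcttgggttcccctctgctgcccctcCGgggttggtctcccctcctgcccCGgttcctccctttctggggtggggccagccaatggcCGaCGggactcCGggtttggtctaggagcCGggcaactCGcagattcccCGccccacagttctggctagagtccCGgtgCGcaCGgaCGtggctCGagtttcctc

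Windows were found for 8 of the 9 genes, 13 in all, and no entry matched *Cavin3*. The *Cavin2* window held 4 CpG and the *Cav3* window 6, against a median of 7 and quartiles of 3 and 20 over 32841 windows of all genes. The *Cav2* window held 16, and the nearly identical windows of *Cavin1* held 17 and 18. *Ehd2* had 18, and the CpG-richest windows of *Pacsin2* and *Pacsin3* had 27 and 24, although other starts of *Pacsin2* had as few as 3. The 2 windows of *Cav1* held 13 and 16. The *Cavin4* window, shown by its count alone, held 7. The GC box GGGCGG, searched on both strands, was found in 35.67% of all windows. It was found in a window of *Cav1*, *Cav2*, *Cavin1*, *Ehd2*, *Pacsin2* and *Pacsin3*, and in no window of *Cav3*, *Cavin2* or *Cavin4*. The TATAAA box, present in 13.62% of all windows on either strand, was found in the first window of *Cav1* and in that of *Cavin4*.

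Among the caveolins, *Cav3* differed most between the groups, *Cav1* was dim in both, and *Cav2* was bright in both with a small difference. *Cav3*, the caveolin of muscle caveolae, was at -4.71, -4.55 and -5.07 in the 3 WT samples and at 2.97, 3.00 and 2.99 in the 3 IG27 samples. All IG27 samples lay above all WT samples, by far more than the spread within either group (SD 0.27 in WT and 0.01 in IG27, n = 3 each). The difference was 7.76 on the log2 scale (SE 0.13), a 217-fold higher signal. All 5 complete arrays had this probe well above background, although the WT processed signals of 29.3 to 44.5 were low next to 7956 to 9050 in IG27 cells. With normexp background correction the *Cav3* difference was 6.39.

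*Cav1* encodes caveolin-1, the main structural protein of caveolae outside muscle. Its brighter probe read -7.70, -7.72 and -8.12 in WT samples and -4.74, -5.0 and -4.79 in IG27 samples. It was not well above background on any WT array and was on both complete IG27 arrays, but it stayed dim there, with a processed signal of 35.5 to 40.9. Measured against the background limit, the *Cav1* signal was at least 1.90-fold higher in IG27 cells. The difference of the measured means was 3.00 (SE 0.14), and it was 0.69 with normexp background correction. The second *Cav1* probe read -7.84, -7.68 and -8.12 in WT samples and -5.70, -5.78 and -6.18 in IG27 samples and was not well above background on any complete array. *Cav1* signals thus lay near the background limit in both groups.

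*Cav2*, whose product forms hetero-oligomers with caveolin-1 and depends on it to reach the cell surface, was measured by 3 probes. The brightest read 3.68, 3.41 and 3.80 in WT samples and 3.91, 3.90 and 3.97 in IG27 samples. The groups did not overlap, but the gap between the highest WT and the lowest IG27 sample was smaller than the range within WT. The difference was 0.30 (SE 0.10), a 1.23-fold higher signal. The second probe differed by 0.33, and the third, against another transcript and much dimmer, by 0.80, so all 3 had the same sign. The difference of the brightest probe was 0.19 without WT replicate 2 and 0.52 with the slide row as a block, which compares IG27 cells with that replicate alone. Its adjusted p from limma was above 0.05 without WT replicate 1 and without each IG27 replicate in turn (differences of 0.33 without WT replicate 1 and 0.31, 0.31 and 0.28 without IG27 replicates 1, 2 and 3). *Cav1* and *Cav2* are neighbors on chromosome 6.

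**Figure D1:**
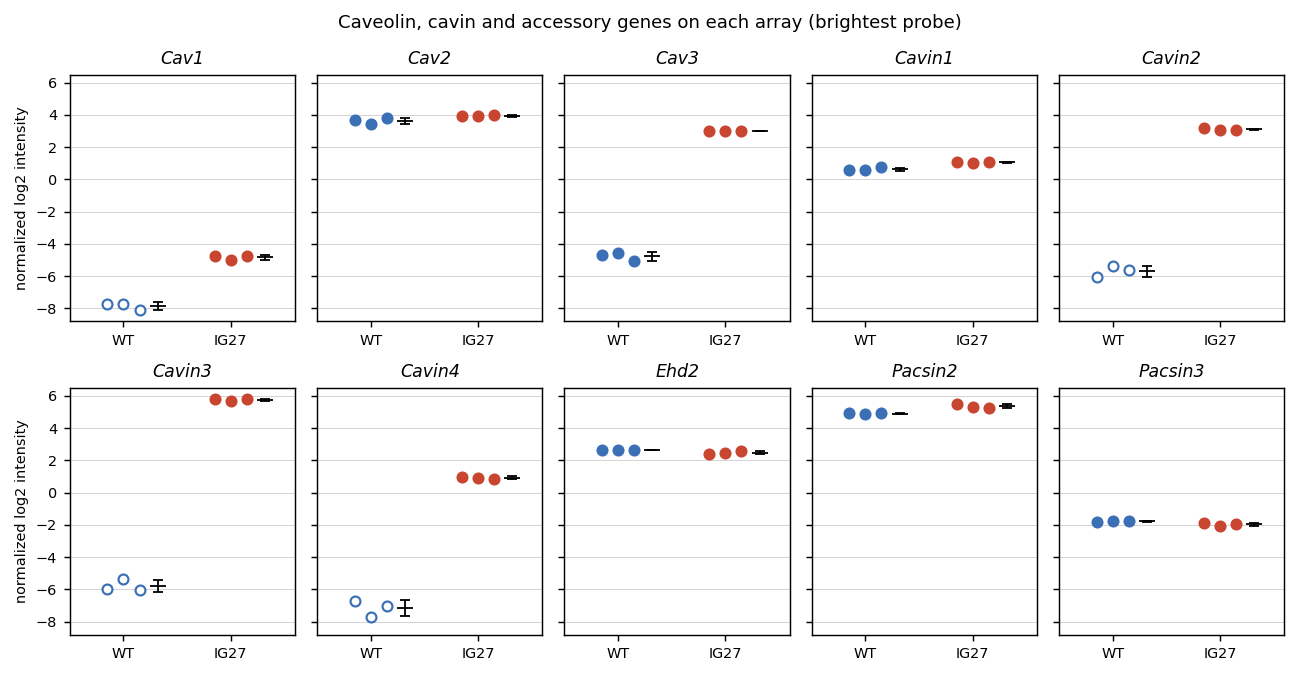
Normalized log2 intensity (vertical axis) of the brightest probe of each of the 9 genes and of *Cavin4* in the 3 WT (blue) and 3 IG27 (red) samples, drawn left to right as replicates 1 to 3, with the mean and SD as a black bar. Open points mark groups in which no complete array was well above background: *Cav1*, *Cavin2*, *Cavin3* and *Cavin4* in WT cells. *Cavin3*, *Cavin2*, *Cav3* and *Cavin4* are low in WT and high in IG27 samples, while the other genes with bright probes lie at nearly the same height in both.

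Among the cavins, *Cavin2* and *Cavin3* were at background in WT cells and bright in IG27 cells, whereas *Cavin1* was present in both and differed little. *Cavin3* encodes the cavin also known as SRBC, a binding partner of protein kinase C delta that is silenced by promoter methylation in several tumors. It read -5.98, -5.37 and -6.01 in WT samples and 5.78, 5.71 and 5.79 in IG27 samples. On the linear scale this is a processed signal of 17.0, 25.2 and 15.3 against 60080, 59236 and 55248, with no overlap between the groups. The WT arrays were not well above background for this probe, so the *Cavin3* signal was at least 2844-fold higher in IG27 cells, with a difference of the measured means of 11.54 on the log2 scale (SE 0.18). This was the largest of the 14898 differences of measured means. The next were *Prxl2b* with 10.82 and *Crym* with 10.46. *Cavin3* was read by 1 probe, with no second probe to compare. With normexp background correction the *Cavin3* difference was 9.15, and leaving out each sample in turn gave 11.43 to 11.75.

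*Cavin2*, also known as SDPR, encodes a phosphatidylserine-binding cavin that is a substrate of protein kinase C and tubulates membranes when it is abundant. Its probe read -6.05, -5.38 and -5.65 in WT samples and 3.15, 3.06 and 3.06 in IG27 samples. It was not well above background on any WT array, and the signal was at least 412-fold higher in IG27 cells. The difference of the measured means was 8.78 (SE 0.17), and it was 6.48 with normexp background correction. *Cavin2* lies on chromosome 1 and *Cavin3* on chromosome 7, so they are not neighbors.

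*Cavin1*, also known as PTRF, encodes the cavin without which caveolae do not form. It read 0.59, 0.57 and 0.74 in WT samples and 1.09, 1.04 and 1.08 in IG27 samples. Every IG27 sample lay above every WT sample, and the difference was 0.43 (SE 0.06), a 1.35-fold higher signal. The second *Cavin1* probe was not well above background on any complete array and gives no fold. The difference ranged from 0.40 to 0.50 over the alternatives tried.

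The accessory genes were bright or moderately bright in both groups and differed by less than 0.50 on the log2 scale. *Pacsin2*, the broadly expressed pacsin that shapes caveolae, read 4.91, 4.88 and 4.93 in WT samples and 5.50, 5.32 and 5.25 in IG27 samples. The groups did not overlap, and the *Pacsin2* difference was 0.45 (SE 0.07), a 1.37-fold higher signal. *Pacsin3*, the pacsin most abundant in muscle, read -1.80, -1.77 and -1.79 in WT samples and -1.88, -2.07 and -1.94 in IG27 samples. It was slightly lower in IG27 cells, by -0.18 (SE 0.06).

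*Ehd2*, which stabilizes caveolae at the surface, read 2.62, 2.66 and 2.62 in WT samples and 2.39, 2.47 and 2.61 in IG27 samples. The IG27 samples lay just below the WT samples and the highest of them nearly reached the lowest WT sample. The *Ehd2* difference was -0.15 (SE 0.07) and became -0.01 under quantile normalization, which moved that of *Pacsin3* to -0.30. Single samples decided these small values. Without IG27 replicate 3 the *Ehd2* difference was -0.21 and its adjusted p from limma fell under 0.05, and without IG27 replicate 1 it was -0.10. The *Pacsin3* difference was -0.13 without IG27 replicate 2, and its adjusted p from limma was above 0.05 when any sample other than IG27 replicate 1 was left out (-0.18 without WT replicate 1, -0.17 without WT replicate 2, -0.18 without WT replicate 3 and -0.19 without IG27 replicate 3).

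Of the 8 genes other than *Cavin3*, 7 had an adjusted p under 0.05 in limma, 6 higher and 1 lower in IG27 cells, and *Ehd2* did not. Over all genes tested 70.5% were called, 30.5% higher and 40.0% lower, and the family was chosen from this comparison, so nothing is read from the count. The groups did not overlap for all 8, as for 75.7% of all genes. *Cav1*, *Cav3* and *Cavin2* were called with measured means that differed by a log2 of 1 or more upward, although the bound for *Cav1* was 1.90-fold. None of the 8 was called with such a difference downward. Over all genes the shares were 11.5% upward and 11.7% downward. *Cav1* and *Cavin2* passed the filter through IG27 cells alone. The WT values behind their calls are background signals, so nothing is read from these calls. The median difference of the 8 genes was 0.44 and that of all genes was -0.07. The measured means of *Cavin3*, *Cavin2* and *Cav3* differed by 7.76 or more, and the best probes of *Cav2*, *Cavin1*, *Ehd2*, *Pacsin2* and *Pacsin3* by -0.18 to 0.45.

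**Figure D2:**
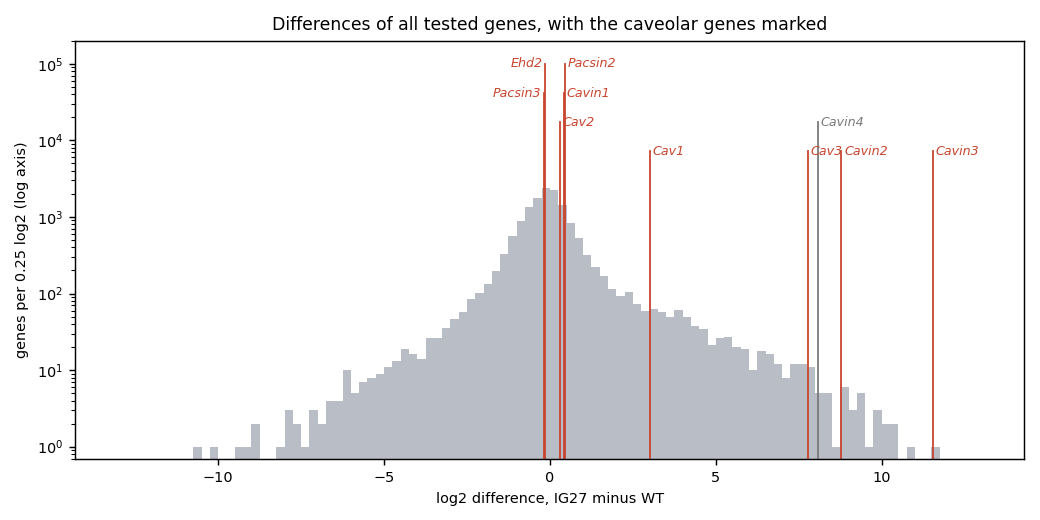
Number of genes (vertical axis, log scale) by log2 difference between IG27 and WT cells (horizontal axis, bins of 0.25) over all 14898 genes tested, with the 9 genes in red and *Cavin4* in gray; line heights only separate the names. *Cav3*, *Cavin4*, *Cavin2* and *Cavin3* lie in the far right tail between 7.76 and 11.54, while *Ehd2*, *Pacsin3*, *Cav2*, *Cavin1* and *Pacsin2* lie in the central peak.

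The partners of caveolae were taken from a list of 18 genes known from the coat, the neck or the signaling of caveolae, of which 17 were tested (*Cd36* was too dim). In IG27 cells 4 rose, 10 fell and 3 did not pass (limma, adjusted p under 0.05), so 82.4% were called against 70.5% of all genes (30.5% higher and 40.0% lower). The median difference was -0.32 against -0.07 over all genes, and nothing particular to the list is read from these counts. *Cavin4*, the muscle cavin, rose most. Its probe read -6.73, -7.71 and -7.05 in WT samples and 1.0, 0.92 and 0.83 in IG27 samples. It was not well above background on any WT array and so passed the filter through IG27 cells alone. The *Cavin4* signal was at least 103-fold higher in IG27 cells (difference of the means 8.08, SE 0.24, adjusted p = 9.97e-07 in limma). The WT values behind this p are background signals, so nothing is read from the p. With normexp background correction the *Cavin4* difference was 4.87.

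The next rises in this list were in genes known from endothelial caveolae. *Plvap*, the protein of the diaphragms that close endothelial caveolae, rose by 1.45 (SE 0.05, adjusted p = 1.17e-06 in limma). *Nos3*, the endothelial nitric oxide synthase that caveolin-1 holds inactive, rose by 1.16 (SE 0.04, adjusted p = 2.11e-06). *Ehbp1l1*, a partner of EHD proteins, rose by 0.26.

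The falls included relatives and partners of the neck proteins. *Ehd4*, an ATPase of the EHD2 family, fell by 1.88 (SE 0.06, adjusted p = 1.22e-06 in limma), and its relatives *Ehd1* and *Ehd3* fell by 0.23 and 0.32. *Ror1*, a receptor pseudokinase that binds cavin-1 and caveolin-1, fell by 1.44 (adjusted p = 2.23e-04). *Dnm2*, the dynamin that cuts membrane necks, fell by 1.06 in its brightest probe and in all 3 of its probes, by at least 0.38. *Ehbp1*, a linker of EHD proteins to actin, fell by 1.02, *Insr*, the insulin receptor, by 0.88, *Flna*, the actin cross-linker filamin A, by 0.75 and *Bmpr2*, a receptor of bone morphogenetic proteins, by 0.65. *Src* fell by 0.48 in its brightest probe, but another probe differed by 0.59. *Pacsin1*, *Abl1* and *Trpc1* did not pass in their brightest probes, with differences of 0.28, -0.12 and 0.08, while a second, dimmer probe of each differed by 2.10, -0.99 and 0.49.

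The other endocytic routes, by clathrin, dynamin, flotillins and the CLIC/GEEC carriers, were followed with 24 genes, all tested. Of these 8 rose and 8 fell, 66.7% against 70.5% of all genes, with a median of -0.06. *Arhgap26*, the GTPase activator GRAF1 of clathrin-independent carriers, rose by 2.25 (SE 0.10, adjusted p = 4.70e-06 in limma), *Amph*, the dynamin-binding amphiphysin, by 1.30 and *Picalm*, a clathrin assembly protein, by 0.73. *Dnm3* fell by 2.69 (SE 0.07, adjusted p = 5.86e-07), while *Dnm1* did not pass, with a difference of -0.03 in its brightest probe and -0.50 in the other. The lipid raft scaffolds *Flot1* and *Flot2* fell by 0.76 and 0.44. Clathrin and its adaptor AP2 were split. The light chain *Clta* rose by 0.54 and *Cltb* fell by 0.55, the heavy chain *Cltc* did not pass at -0.17, and of the AP2 subunits *Ap2b1* fell by 0.64 and *Ap2m1* by 0.39 while *Ap2a1* rose by 0.30.

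Protein kinase C isoforms were followed because cavin-2 and cavin-3 bind them, and clock genes because cavin-3 is known as a partner of the period protein PER2. Of 21 genes 19 were tested, of which 9 rose and 5 fell, 73.7% against 70.5% of all genes, with a median of 0.20. The isoform after which cavin-3 was named, *Prkcd*, was dim in both groups and did not pass, with a difference of 0.20 (SE 0.15, adjusted p = 0.253 in limma). *Prkca*, *Prkci* and *Prkcq* fell by 1.33, 1.39 and 1.30. *Prkce* rose by 1.96. All 3 period genes rose: *Per2* by 3.39 (SE 0.11, adjusted p = 1.62e-06), *Per3* by 1.81 and *Per1* by 1.32. Of their partners, *Arntl*, which encodes BMAL1, rose by 0.79, *Cry1* by 0.42 and *Nr1d1* by 1.34, *Cry2* fell by 0.33, and *Clock* did not pass, at 0.05 in its brightest probe and 0.57 in the other. Each group was sampled once, after 2 days of culture, and the times of day are not given in the labels.

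**Figure D3:**
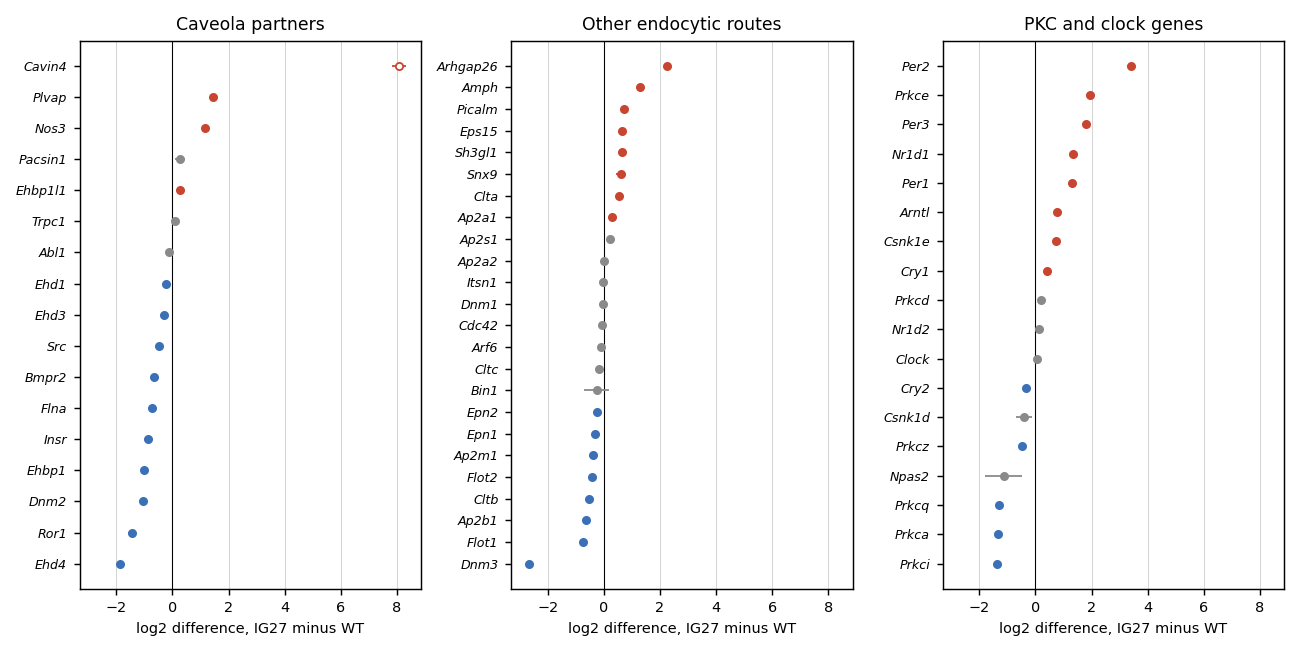
Log2 difference between IG27 and WT cells (horizontal axis, with SE) of every tested gene of the lists of caveola partners (17 genes), other endocytic routes (24) and protein kinase C and clock genes (19, of which 1 is not drawn). Red genes rose and blue genes fell (limma, adjusted p under 0.05), gray genes did not pass, and the open point was not above background in WT cells; *Cavin4* at 8.08 stands apart, and every other gene drawn lies between -2.69 and 3.39.

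The genes around each member were compared with it, as the 5 nearest tested genes on each side in the order of the reference annotation. Around *Cavin3*, which differed by 11.54, the 10 neighbors differed by -0.77 to 0.78. They were *Olfr656* (0.52), *Usp17la* (0.17), *Olfr681* (0.78), *Fam160a2* (0.08) and *Gm5901* (-0.19) on one side, and *Smpd1* (-0.70), *Apbb1* (-0.77), *Hpx* (0.57), *Trim3* (0.21) and *Arfip2* (0.38) on the other. Of these 4 rose and 2 fell, where 30.5% of all genes rose and 40.0% fell. Olfactory receptor and *Usp17la* genes belong to families of similar sequence, so their probes may read relatives.

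Around *Cav1* and *Cav2* 1 of 10 neighbors rose and 7 fell, where 30.5% of all genes rose and 40.0% fell. The gene next to *Cav1*, *Met*, the receptor of hepatocyte growth factor, fell by 2.87 (SE 0.08, adjusted p = 7.59e-07 in limma), opposite in sign to both caveolins. The next on that side were *Capza2* (-0.41), *St7* (-0.54), *Cttnbp2* (0.14) and *Lsm8* (-0.53), and on the other side *Mdfic* (-0.20), *1110019D14Rik* (0.31), *Bmt2* (-0.31), *Tmem168* (-0.15) and *Tmem106b* (-1.10). A dimmer probe of *Mdfic* differed by 0.06, opposite in sign to its brightest.

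Around *Cavin2* 8 of 10 neighbors rose and none fell, with a median of 0.82 (all genes, 30.5% higher and 40.0% lower), and the largest values were at *Nabp1*, a single-strand DNA-binding protein (2.34, at least 4.51-fold, since it was not above background in WT cells), and *Tmeff2*, a transmembrane protein (2.03). Around *Cav3* 7 rose and 3 fell, none by more than 1.48. Around *Pacsin3* none rose and 8 fell, with *Madd* lowest at -2.31, while *Pacsin3* itself differed by -0.18. *Tspo*, a mitochondrial outer membrane protein near *Pacsin2*, rose by 3.76, and *Meis3*, a homeobox gene near *Ehd2*, fell by 2.32. Over the 80 neighbors of all members 24 rose and 31 fell, 68.8% against 70.5% of all genes, with a median of 0.04.

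**Figure D4:**
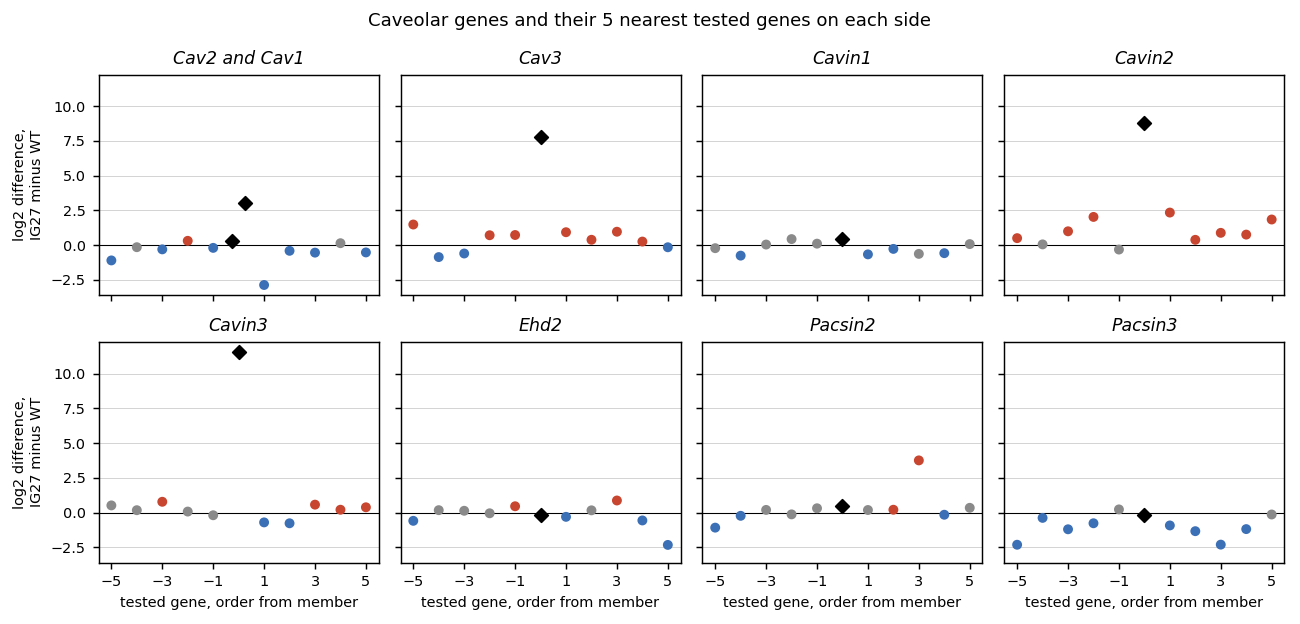
Log2 difference between IG27 and WT cells (vertical axis) of each member (black diamond) and of its 5 nearest tested genes on each side, by order in the reference annotation (horizontal axis, no distances). Red neighbors rose, blue fell and gray did not pass (limma, adjusted p under 0.05); *Cavin3*, *Cavin2* and *Cav3* stand far above all of their neighbors, while *Met* next to *Cav1* is at -2.87.

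The genes whose values followed *Cavin3* most closely over the 6 arrays were *Egr2* (Pearson r = 0.99999), *Map3k6* (0.99993), *Mfng* (0.99992), *Adgrf3* (0.99992) and *S100a11* (0.99991), with differences of 4.78, 3.78, 3.45, 8.95 and 7.96. These correlations describe 6 points in 2 groups and reflect the step between them, as r was over 0.99 for 1415 genes.

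Since caveolae are abundant in endothelium, fat and muscle, markers of these cells were read beside the members. Of 7 endothelial markers, *Cdh5*, *Tek*, *Tie1*, *Cldn5* and *Emcn* were not above background on any complete array. *Kdr*, a receptor of vascular endothelial growth factor, was at -7.97, -7.70 and -8.24 in WT samples and at 1.30, 1.33 and 1.29 in IG27 samples. It was at least 135-fold higher (adjusted p = 9.88e-08 in limma) and passed the filter through IG27 cells alone. The WT values behind this p are background signals, so nothing is read from the p. *Pecam1* fell by 0.27. The summed level of the endothelial list, in log2 and with probes at background included, ran from -2.48 to -2.30 in WT and from 1.39 to 1.43 in IG27 samples. Only *Kdr* of the 7 rose, so the sum does not describe the other endothelial markers. Of 7 muscle markers, *Myog* and *Ckm* were not above background on any complete array. *Cnn1*, *Tagln* and *Acta2* fell by 4.69, 1.26 and 0.51, and *Myh11* did not pass at 0.29. *Des* rose by 1.06 but was dim, at -5.60 in WT and -4.54 in IG27 samples. Its probe was above background on only 2 WT arrays. The summed level of the muscle list ran from 7.89 to 7.96 in WT and from 5.40 to 5.45 in IG27 samples. This sum does not describe *Des* and *Myh11*, which did not fall. Of 6 adipocyte markers, *Adipoq*, *Plin1*, *Fabp4* and *Cfd* were not above background on any complete array, and *Lep* and *Pparg* did not pass. The summed level of the adipocyte list ran from -1.16 to -0.80 in WT and from -1.02 to -0.84 in IG27 samples.

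Markers of glia and of other cell types were read in the same way. Of the 11 glial markers 4 rose and 4 fell, 72.7% against 70.5% of all genes. *S100b* rose by 4.93, *Olig1* by 1.48 and *Olig2* by 1.51, and *Gfap* fell by 1.07, *Aldh1l1* by 1.72, *Nes* by 0.50 and *Sox10* by 0.37. *Slc1a3*, not above background on any WT array, passed the filter through IG27 cells alone and was at least 20.6-fold higher there. The summed level of the glial list ran from 8.35 to 8.42 in WT and from 8.01 to 8.08 in IG27 samples. Of 5 fibroblast markers, *Pdgfra*, which oligodendrocyte progenitors also express, rose by 2.36 and *Col1a1* fell by 0.92. *Dcn* passed the filter through IG27 cells alone and was at least 3.32-fold higher there, while *Col1a2* and *Lum* did not pass the filter. The summed level of the fibroblast list ran from 6.83 to 6.87 in WT and from 5.92 to 6.03 in IG27 samples. This sum does not describe *Pdgfra* and *Dcn*, which rose. Of 4 microglia markers, *Aif1* rose by 1.66, *P2ry12* by 0.49 and *Cd68* by 0.31, with *Cx3cr1* not above background on any complete array. *Aif1* was dim, at -5.75 in WT and -4.09 in IG27 samples, and was above background on only 1 WT array. The summed level of the microglia list ran from -0.05 to 0.09 in WT and from 0.38 to 0.47 in IG27 samples. Of 4 neuron markers, *Tubb3* fell by 2.63, *Snap25* did not pass at -0.11, and *Rbfox3* and *Syt1* were not above background on any complete array, with a summed level of 4.13 to 4.31 in WT and 2.74 to 2.89 in IG27 samples. In bulk RNA a change in the share of cells that express a gene and a change in RNA per cell cannot be told apart, and the part of other cell types in the differences of *Cav3*, *Cavin2* and *Cavin3* was not tested.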

How the data were processed

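Cy3-labeled RNA of 3 WT and 3 IG27 samples was measured on 6 single-color Agilent arrays. The authors read the spots with Agilent Feature Extraction (version 9.1 per the labels, 10.7.3.1 per the file headers), and the deposited processed signal is a linear intensity. A deposited table repeats this intensity for each probe: all 56305 single-spot probes equaled the scanner output of each complete array (relative tolerance 1e-04). In it the columns of WT replicates 2 and 3 are exchanged, and the scanner labels were used. The scanner output of IG27 replicate 2 holds 285 of 62976 spots, so its values came from the table. Well-above-background and outlier flags were used as deposited.

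Values were log2 of the processed signal minus the 75th percentile of the array's probes, without spots flagged as outliers (107 to 210 per complete array). Probes were named through RefSeq accessions with a GRCm38.p6 gene table, for names and gene order only (32994 probes matched). A probe was kept if all complete arrays of 1 group or of both flagged it as well above background, and the brightest probe per gene was used. IG27 and WT were compared with limma 3.58.1, run in R 4.3.3 on all 6 arrays (functions lmFit and eBayes, two-sided test without a block), with Benjamini-Hochberg adjustment over 14898 genes at 0.05. Where no complete array of a group was well above background, the fold is a lower bound. It is set on each array against the lowest signal of any probe called above background, or the probe's own signal if higher. This is not a detection limit of the probe itself, and the bound holds for the processed signal alone. Where a probe was not above background, a higher mean difference is not a measured fold. The median processed signal was 55.4 to 77.6 against a local background of 29.0 to 34.0, and 3 arrays per group limit the precision.

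The members, the gene lists, the rule for naming genes and the tests were chosen with earlier results of these data known. Named were all probes of the 9 genes, the 3 largest differences of each list in each direction and further list genes, the neighbors of *Cavin3* and of *Cav1* and *Cav2*, the 5 genes most like *Cavin3*, and *H3f3a*. The values of 1 gene of the kinase list are not reported here. The alternatives were the 5 complete arrays, the value table, quantile normalization, normexp background correction (offset 50, on median signals, since the files hold no mean signal), no filter and a stricter filter, the use of outlier spots, averaging all probes of a gene, a variance trend in eBayes, the replicate number and the slide row as blocks, an unadjusted p and each sample left out. Same-numbered WT and IG27 samples correlated in their deviations at 0.012, 0.039 and 0.076, below the 0.1 set for pairing.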

Additional observations from a re-analysis of the deposited data

How the results depend on the processing

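The number of the 8 genes besides *Cavin3* with an adjusted p under 0.05 in limma was 7 and ran from 5 to 7 over 18 alternatives (5 to 6 with 1 sample left out). The calls of *Cav2* and *Pacsin3* were lost in 6 and 11 of 17 alternatives. With the stricter filter both kept their calls, and the count was 5 of 6 because *Cav1* and *Cavin2* were not tested. *Ehd2* passed in 1 of 17. The fit on the 5 complete arrays and the fit without IG27 replicate 2 are the same, and these counts include both. *Cav3*, *Cavin1* and *Pacsin2* kept the sign of their difference and an adjusted p under 0.05 in all alternatives that gave a value. *Cav1*, *Cavin2*, *Cavin3* and *Cavin4* kept the sign of theirs. Nothing is read from their p, since all of them passed the filter through IG27 cells alone and the family was chosen on *Cavin3*. With the filter of well above background on every complete array, *Cav1*, *Cavin2*, *Cavin3* and *Cavin4* have no value. The next counts leave out alternatives that repeat another or keep every estimate by construction. In the 12 others no difference of a member or of *Cavin4* changed sign in 120 refits. Of these, 102 moved by less than the spread between replicates. Several could hardly move: averaging probes altered *Cav2* alone, and the value table and the outlier spots each gave *Cav3* 7.7655 against 7.7648. The 102 is therefore not a measure of robustness. The largest moves came with normexp background correction, which adds an offset of 50 to every signal (*Cavin3* 9.15, *Cavin2* 6.48, *Cav3* 6.39, *Cavin4* 4.87 and *Cav1* 0.69), and with the slide row as a block (*Cavin3* 11.13, *Cavin2* 8.47, *Cav3* 7.54, *Cavin4* 8.62). Partner genes called ran from 12 to 15, endocytosis genes from 16 to 18, kinase and clock genes from 13 to 15, neighbors from 46 to 58 and all genes from 8946 to 10855. Samples with the same replicate number were not shown to be paired, and with the replicate block 10309 genes were called against 10501 without it, with 6 of the 8 members, 14 partner genes, 17 endocytosis genes, 14 kinase and clock genes and 52 neighbors. When dim probes were not filtered, all genes had a median difference of 0.12 in place of -0.07. The differences of *Cav1*, *Cavin2*, *Cavin3* and *Cavin4* start from signals that could not be told from background in WT cells. Only lower bounds are given for these genes, and they hold for the processed signal alone. In log2 the bounds were 0.93, 8.69, 11.47 and 6.69, and each difference with normexp background correction was smaller than its bound. The *Cav1* bound of 1.90-fold is the weakest.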
